A study of Mus musculus with 6 samples.

Results

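The genes of the mitochondrial ribosomal proteins were described in mouse gastrocnemius, a hindlimb muscle of mostly fast fibres, after a high phosphate (HP) or a normal phosphate (NP) diet. Members were the protein-coding genes of the deposited count table whose symbol begins with Mrpl or Mrps and a number, 77 of 47967 genes. By symbol, 48 belong to the large subunit (Mrpl) and 29 to the small subunit (Mrps). Male C57BL/6 mice aged 20 to 24 weeks had received the HP diet, with 2.0% inorganic and 2.3% total phosphate, or the NP diet, with 0.6% inorganic and 0.9% total phosphate, for 12 weeks. The minerals given besides phosphate were the same in both diets, with calcium at 1.9%, sodium at 0.9%, potassium at 1.8% and magnesium at 0.3%. RNA of the whole muscle was sequenced, 3 libraries per diet. The labels do not say that the libraries of a diet came from separate mice, so the p-values measure the spread between these libraries, which may be technical.

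Mitochondria carry a ribosome of their own, the mitoribosome, which translates the few messenger RNAs of the mitochondrial genome. These encode core subunits of respiratory chain complexes and of ATP synthase. All proteins of the mitoribosome are encoded in the nucleus, made on cytosolic ribosomes and imported, whereas its ribosomal RNAs come from mitochondrial DNA. Some of the proteins descend from those of the bacterial ribosome, and others were added in the mitochondrial lineage. The large subunit joins amino acids and the small subunit reads the codon. In skeletal muscle, which depends on mitochondria for sustained work, these genes are commonly counted among the targets of mitochondrial biogenesis. The RNAs that the mitoribosome translates could not be followed here, because all 37 mitochondrially encoded genes in the table had 0 counts in every library.

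The nuclear respiratory factors NRF1 and NRF2, the second of which is the ETS-family factor GABP, and the factor YY1 are known regulators of nuclear genes for mitochondrial proteins. Their short motifs were searched on both strands in RefSeq promoters of build GRCm38.p6, each running from 250 bases before to 50 bases after a transcript start. Of the members, 68 of 77 had a promoter in that table, 74 promoters in all. The NRF1 motif GCGCANGCG stood in 21.6% of the members' promoters, against 6.25% of all 32851 promoters and 11.9% of the 14084 promoters of tested genes. The ETS motif CCGGAAG stood in 33.8%, against 8.86% and 15.5%. The YY1 motif AAGATGGC stood in 16.2%, against 2.75% and 3.98%. At least 1 of the 3 stood in 43 of 74 member promoters, 58.1%, against 16.0% of all promoters and 27.5% of those of tested genes. The E-box CACGTG, bound by MYC, USF and other factors, stood in 9.46%, against 7.15% and 9.5%. The NRF1 motif and the E-box can match both strands at the same place, and a promoter with several matches was counted once. Median GC content was 58.5% in member promoters, 60.3% in promoters of tested genes and 52.7% in all. The 250 bases before the start of 4 genes that recur in the results follow, 5′ to 3′ on the gene's strand, with the motif in capitals. Mrpl51 at chr6:125191950-125192199 (+ strand) holds an ETS motif at position -90 from the start. Mrps12 at chr7:28741822-28742071 (- strand) holds a YY1 motif, read on the opposite strand, at position -199. Mrpl12 at chr11:120484387-120484636 (+ strand) holds an NRF1 motif, read on the opposite strand, at position -80. Mrpl33 at chr5:31613701-31613950 (+ strand) holds none of the motifs wholly before its start.
Mrpl51: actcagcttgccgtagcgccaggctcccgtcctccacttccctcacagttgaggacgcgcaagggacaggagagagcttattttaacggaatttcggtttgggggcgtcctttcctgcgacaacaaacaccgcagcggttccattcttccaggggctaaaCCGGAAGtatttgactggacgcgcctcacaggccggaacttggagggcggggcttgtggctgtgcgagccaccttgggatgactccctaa
Mrps12: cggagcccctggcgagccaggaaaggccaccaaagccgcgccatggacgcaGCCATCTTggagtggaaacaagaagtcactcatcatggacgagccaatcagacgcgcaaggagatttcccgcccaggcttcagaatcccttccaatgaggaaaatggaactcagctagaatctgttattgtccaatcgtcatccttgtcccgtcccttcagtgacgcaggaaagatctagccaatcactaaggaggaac
Mrpl12: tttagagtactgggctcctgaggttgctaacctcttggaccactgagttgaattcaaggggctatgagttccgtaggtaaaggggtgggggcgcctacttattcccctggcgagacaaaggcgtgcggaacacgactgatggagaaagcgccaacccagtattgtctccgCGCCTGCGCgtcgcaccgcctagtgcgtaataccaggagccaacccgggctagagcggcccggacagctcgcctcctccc
Mrpl33: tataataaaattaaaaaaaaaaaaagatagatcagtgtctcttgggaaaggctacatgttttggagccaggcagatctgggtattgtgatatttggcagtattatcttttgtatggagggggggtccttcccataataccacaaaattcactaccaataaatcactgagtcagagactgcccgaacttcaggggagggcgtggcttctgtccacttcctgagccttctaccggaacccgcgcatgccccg

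The libraries held 21856006 to 27474251 counts in genes. The scaling between libraries decides the direction in which the members moved, so the counts of calls, the medians and the named genes that rose are given under a pair of scalings. Library-size scaling divides counts by all counts of the library, whereas TMM (trimmed mean of M-values) scaling also corrects for a shift shared by most genes. The TMM factors were 0.795, 0.871 and 0.882 in HP libraries 1, 2 and 3, against 1.10, 1.29 and 1.16 in NP libraries 1, 2 and 3. The 10 most abundant genes took 24.0%, 21.5% and 22.2% of counts in the HP libraries, against 16.2%, 13.0% and 15.4% in the NP libraries. In CPM, counts expressed per a fixed total of the library, after TMM scaling, the 76 members with enough counts to be tested summed to 4044, 4184 and 3997 in the HP libraries. They summed to 3743, 2675 and 3201 in the NP libraries. All HP libraries lay above all NP libraries on this scale, at 4075 ± 97.3 in HP and 3206 ± 534 in NP (SD, n = 3 each). After library-size scaling the sums were 3215, 3642 and 3525 CPM in the HP libraries, against 4123, 3443 and 3700 CPM in the NP libraries. On that scale the diets overlapped, at 3461 ± 221 CPM in HP and 3755 ± 343 CPM in NP (SD, n = 3 each). As a share of all counts the members took 0.321% to 0.364% in HP and 0.344% to 0.412% in NP. In whole muscle, fewer cells of a type and less RNA per cell cannot be told apart.

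**Figure D1:**
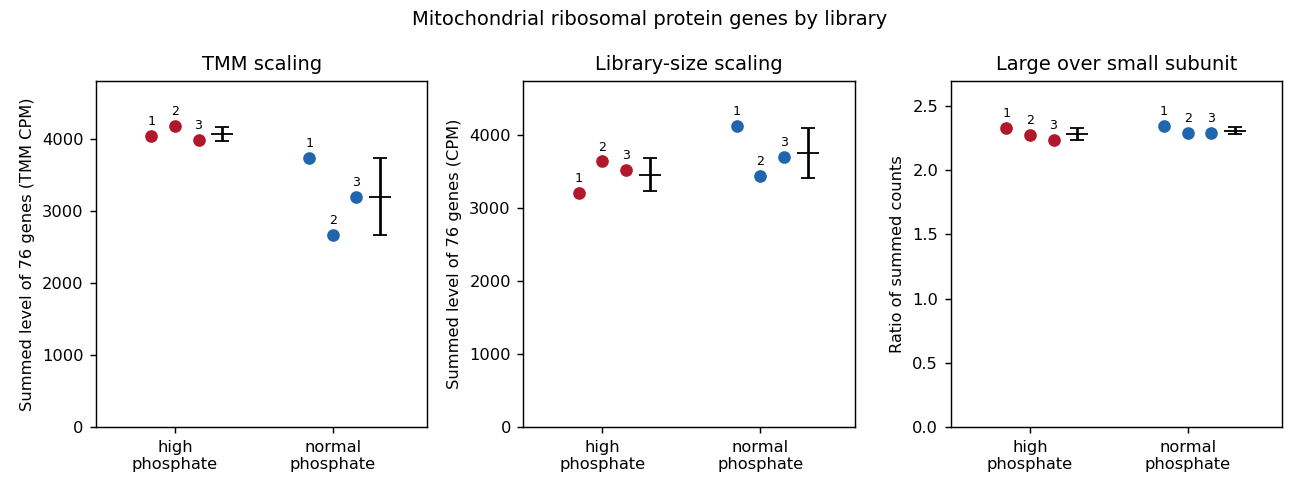
Summed level of the 76 tested mitochondrial ribosomal protein genes in each library (points, numbered by replicate; bars, mean ± SD, n = 3), in CPM after TMM scaling (left) and after library-size scaling (middle), and the ratio of large to small subunit counts (right). The HP libraries lie at 3997 to 4184 under TMM, above the NP libraries at 2675 to 3743, whereas under library-size scaling and for the subunit ratio the diets overlap.

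Under TMM scaling, 31 of 76 tested members were higher on the HP diet and 0 were lower at an adjusted p under 0.05 in edgeR's quasi-likelihood test. Of all 15347 genes tested, 23% were higher and 26.3% were lower by the same rule. At an unadjusted p under 0.05, 46 members were higher and 0 lower, against 27% and 29.6% of all genes. DESeq2 also found 0 lower. The log2 fold changes of members ran from -0.158 to 0.654 with a median of 0.33, and 71 of 76 were above 0. Their quartiles were 0.24 and 0.41 and their SD 0.16, whereas the quartiles of all genes were -0.58 and 0.37 and their SD 0.89. The members' fold changes were therefore small and close to each other, with standard errors (SE) of 0.0955 to 0.184. In 44 members every HP library lay above every NP library, against 30.3% of all genes. In 0 members every HP library lay below, a direction for which the share of all genes is not given here. The tested members averaged 244.8 to 6522 counts per library, and 0 of them had under 100 counts in any library. No member therefore passed the low-count filter through 1 diet alone. The remaining member, Mrpl53, did not pass it.

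**Figure D2:**
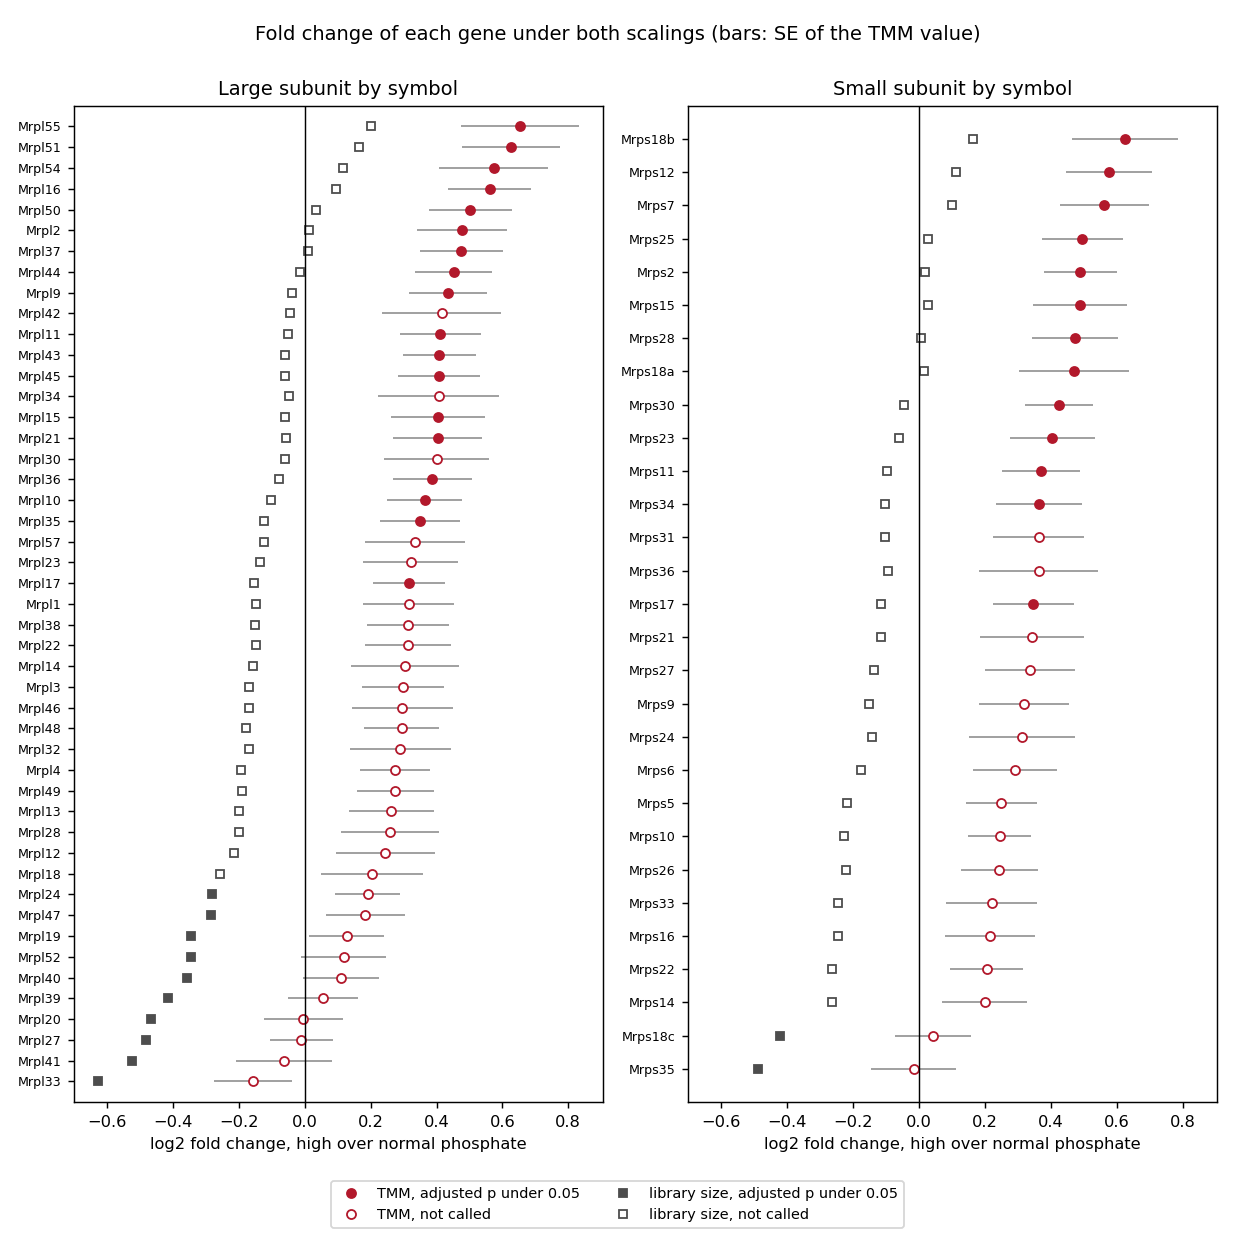
Log2 fold change, HP over NP, of each of the 76 tested genes under TMM (circles, with bars for 1 SE) and under library-size scaling (squares), filled where the adjusted p was under 0.05, with the large subunit left and the small subunit right. The TMM values run from -0.158 to 0.654 with 31 called higher, and the library-size values lie to the left of them, from -0.63 to 0.20, with 12 called lower.

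With library-size scaling, 0 of 76 members were higher and 12 were lower in edgeR, against 5.72% and 51.4% of all genes. At an unadjusted p under 0.05, 0 were higher and 14 lower, against 6.86% and 56% of all genes. limma on log2(FPKM + 1), from the deposited FPKM (fragments scaled by gene length and library size), also gave 0 higher, with 0 at an unadjusted p under 0.05, against 6.44% of all genes. The median log2 fold change was -0.14, and 15 of 76 values were above 0. In 21 members every HP library lay below every NP library, against 60.2% of all genes. In 0 members every HP library lay above, and here too the share of all genes is not given. The direction of the family thus turned with the scaling, and so did the median of all genes, which was -0.02 under TMM and -0.49 under library size. A scaling factor applies to all genes of a library alike, so the members' distance from that median was nearly fixed in advance across scalings. Relative to the median of all genes, the members' median lay 0.34 higher under TMM and 0.35 higher under library-size scaling. It also lay 0.34 higher with the RLE size factors of DESeq2, where 35 members were called higher, against 23.8% of all genes. Changes below are read against this shift, and "rose" and "fell" hold for the scaling named.

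**Figure D3:**
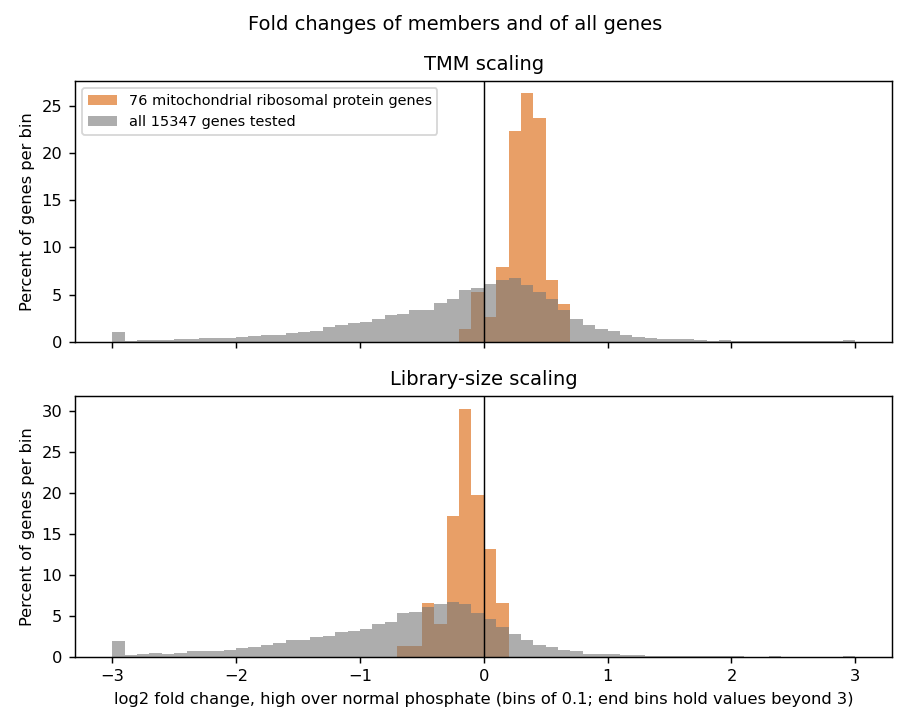
Share of the 76 tested members (orange) and of all 15347 tested genes (grey) in bins of log2 fold change, HP over NP, under TMM (top) and library-size scaling (bottom). The members form a narrow peak to the right of the middle of all genes in both panels, with medians of 0.33 against -0.02 under TMM and -0.14 against -0.49 under library-size scaling.

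In the small subunit, 13 of 29 members rose under TMM, against 23% of all genes, with a median log2 fold change of 0.35. Mrps12, the homolog of a bacterial protein that lines the decoding centre, had 33.5, 40.1 and 38.3 TMM CPM in the HP libraries, against 29.5, 22.8 and 22.8 TMM CPM in the NP libraries. Its log2 fold change was 0.58 ± 0.13 (SE, adjusted p = 0.00637), with no overlap between the diets. Mrps7, a homolog of the bacterial protein that nucleates the head of the small subunit, had 98.3, 102.8 and 97.2 TMM CPM on HP, against 77.1, 54.5 and 70.4 TMM CPM on NP. It rose by 0.56 ± 0.13 (SE, adjusted p = 0.00804), and here too every HP library lay above every NP library. Mrps18b, at chr17:35910379-35916389 (- strand), is 1 of 3 mammalian relatives of bacterial S18. It had 16.6, 18.4 and 17.1 TMM CPM on HP, against 12.8, 8.50 and 12.5 TMM CPM on NP, and rose by 0.62 ± 0.16 (SE, adjusted p = 0.0114). The gene Gm16279 overlaps 30.5% of the exonic bases of Mrps18b on the opposite strand. The strand setting of the counting is not given in the sources used here, so reads of the pair cannot be told apart. Under library-size scaling the 3 values were 0.11 for Mrps12, 0.10 for Mrps7 and 0.16 for Mrps18b, with adjusted p of 0.512, 0.46 and 0.388.

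In the large subunit, 18 of 47 tested members rose under TMM, against 23% of all genes, with a median of 0.31. The largest log2 fold change of any member, 0.65 ± 0.18 (SE, adjusted p = 0.0152), was that of Mrpl55, at chr11:59202486-59206134 (+ strand). It had 43.5, 46.8 and 51.7 TMM CPM on HP, against 38.1, 22.2 and 30.0 TMM CPM on NP. Mrpl51 is a protein without a bacterial counterpart whose promoter with its ETS motif is printed above. It had 129, 144 and 131 TMM CPM on HP, against 101.9, 69.1 and 90.8 TMM CPM on NP, a log2 fold change of 0.63 ± 0.15 (SE, adjusted p = 0.00791). Mrpl54, also added in the mitochondrial lineage, had 65.5, 73.1 and 66.2 TMM CPM on HP, against 57.2, 34.6 and 46.0 TMM CPM on NP. Its log2 fold change was 0.57 ± 0.17 (SE, adjusted p = 0.0187). In all 3 genes NP library 2 was the lowest and the diets did not overlap. Under library-size scaling they stood at 0.20 for Mrpl55, 0.17 for Mrpl51 and 0.12 for Mrpl54, and did not pass the test (adjusted p = 0.312, 0.273 and 0.503). The TMM call was lost for Mrpl55 without HP library 3 (0.60) and for Mrpl54 without HP library 2 (0.54). The smallest adjusted p of any member under TMM was 0.00572, for Mrpl16, which was named after its values were seen. Mrpl16, the homolog of a bacterial protein near the peptidyl transferase centre, had 50.4 ± 2.86 TMM CPM on HP and 34.2 ± 5.22 TMM CPM on NP (SD, n = 3 each), and stood at 0.09 under library-size scaling (adjusted p = 0.48).

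Levels between members were compared only per length, in the deposited FPKM. The most abundant was Mrpl42, a large subunit protein without a bacterial counterpart, with 313, 311 and 323 FPKM on HP, against 377, 276 and 307 FPKM on NP. Mrps21, a small homolog of a bacterial protein, averaged 142 ± 16.0 FPKM on HP and 150.0 ± 22.0 FPKM on NP (SD, n = 3 each). Mrpl33 averaged 111 ± 13.9 FPKM on HP and 164 ± 17.9 FPKM on NP, Mrpl30 averaged 122 ± 13.1 on HP and 128 ± 29.3 on NP, and Mrpl12 averaged 105 ± 19.2 on HP and 117 ± 5.56 on NP. Of these 5, only Mrpl33 had diets that did not overlap in FPKM. Every library of Mrps21 lay above every library of Mrpl12, with 125.6 FPKM as the lowest of the first and 122.4 FPKM as the highest of the second. The libraries of Mrpl33 and Mrpl30 overlapped those of both. Every library of Mrpl42 lay above all libraries of Mrps21, Mrpl33, Mrpl30 and Mrpl12. In TMM CPM, Mrpl42 had 322 ± 11.9 on HP and 241 ± 58.1 on NP (SD, n = 3 each), a log2 fold change of 0.42 ± 0.18 (SE) that missed the threshold in edgeR (adjusted p = 0.0835). Mrpl30 stood at 0.40 and Mrps21 at 0.34, with edgeR adjusted p of 0.0614 and 0.0986. DESeq2 called Mrpl42 and Mrpl30 higher (adjusted p = 0.0356 and 0.0336), and edgeR called Mrpl30 with no low-count filter (adjusted p = 0.0332). Mrpl12 forms the flexible stalk that recruits translation factors and also binds the mitochondrial RNA polymerase. It had 96.7, 104.9 and 94.4 TMM CPM on HP, against 99.9, 66.0 and 84.0 TMM CPM on NP, and these values overlapped (log2 fold change 0.25 ± 0.15 SE, adjusted p = 0.198). Its NRF1 motif is among those printed above. Without NP library 1, Mrpl42, Mrps21, Mrpl30 and Mrpl12 were called higher, at 0.61, 0.53, 0.57 and 0.40.

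At the other end, the 5 least abundant members by FPKM were Mrps35, Mrpl19, Mrps2, Mrps25 and Mrps26. This choice depends on FPKM that were uneven for some genes. Mrps26 had 29.3 FPKM in NP library 1, against 6.66 to 9.90 FPKM in the others. Mrps2, a homolog of a bacterial protein of the small subunit, had 23.7, 25.2 and 22.6 TMM CPM on HP, against 18.9, 16.1 and 16.0 TMM CPM on NP, and rose by 0.49 ± 0.11 (SE, adjusted p = 0.00626). Mrps25, a small subunit protein without a bacterial counterpart, had 32.8 ± 1.99 TMM CPM on HP and 23.3 ± 3.17 TMM CPM on NP (SD, n = 3 each), a rise of 0.50 ± 0.12 (SE, adjusted p = 0.00893). Under library-size scaling Mrps2 stood at 0.02 and Mrps25 at 0.03, and neither passed the test (adjusted p = 0.912 and 0.846). The gene Nr2c2 overlaps 69.8% of the exonic bases of Mrps25 on the opposite strand. Counts of Mrps25 may therefore hold reads of Nr2c2 or lack reads of Mrps25. Mrps26, Mrpl19 and Mrps35 did not pass under TMM, with log2 fold changes of 0.24, 0.13 and -0.02 and adjusted p of 0.107, 0.376 and 0.928. Low abundance by FPKM therefore did not go with a single direction or size among these 5.

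Mrpl33, the homolog of a bacterial large subunit protein, differed most from the other members. It had 61.8, 62.8 and 56.7 TMM CPM on HP, against 78.0, 60.6 and 63.7 TMM CPM on NP, the lowest log2 fold change of the family at -0.16 ± 0.12 (SE, adjusted p = 0.289). In TMM CPM its diets overlapped. It is also the member with the largest fall under library-size scaling, where its log2 fold change was -0.63 ± 0.11 (SE, adjusted p = 0.00132). Across the 6 libraries its TMM log2 CPM correlated at 0.04 with the mean of the other members, whereas the median member reached 0.95 and the quartiles were 0.91 and 0.97. These correlations are descriptions over 6 libraries that share a scaling. The next lowest values were 0.42 for Mrpl41, 0.45 for Mrps35, 0.51 for Mrpl27, 0.57 for Mrpl20 and 0.67 for Mrps18c. The same 6 genes are among the 12 that fell under library-size scaling, with Mrpl24, Mrpl47, Mrpl19, Mrpl52, Mrpl40 and Mrpl39. Mrpl27, a homolog of a bacterial protein at the peptidyl transferase centre, had 32.5, 31.9 and 32.9 TMM CPM on HP, against 34.9, 30.4 and 32.8 TMM CPM on NP, which differed by less than their spread (adjusted p = 0.934). Under library-size scaling its log2 fold change was -0.48 ± 0.11 (SE, adjusted p = 0.00432). Mrpl41 and Mrpl20 stood at -0.52 and -0.47 on that scale, with adjusted p of 0.0124 and 0.00697. On log2(FPKM + 1), limma called 0 members higher and 6 lower, against 4.68% and 36.8% of all genes. Of those 6, 5 also fell under library-size scaling.

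The NP libraries moved the members together. Each of the 76 members lay above its NP mean in NP library 1 and below it in NP library 2, by 0.22 and -0.23 log2 units on average. The order library 1, library 3, library 2 from high to low held for 71 of 76 members, whereas it held for 3456 of 15347 genes. NP library 2 was the lowest of all 6 libraries in 72 members, NP library 3 in 3 (Mrps2, Mrpl35 and Mrps27, named after their values were seen) and HP library 3 in 1 (Mrpl33). HP library 2 was the highest in 37, HP library 1 in 17, HP library 3 in 11 and NP library 1 in 11. The HP libraries deviated from their own mean by -0.03 to 0.05 log2 units on average. Calls therefore depended on single libraries. Without NP library 1, 55 members were higher, against 22.2% of all genes, and without NP library 2, 20 were higher, against 19.6%. Without NP library 3, 20 were higher, against 19.5%, and without HP library 2, 17 were higher, against 18.6%. Without HP library 1, 24 were higher, against 17.4%, and without HP library 3, 22 were higher, against 18%. The median log2 fold change ran from 0.22 without NP library 2 to 0.46 without NP library 1. In all 6 of these fits 14 members were higher, a count for which no share of all genes is given here. In each of the fits 0 members were lower.

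**Figure D4:**
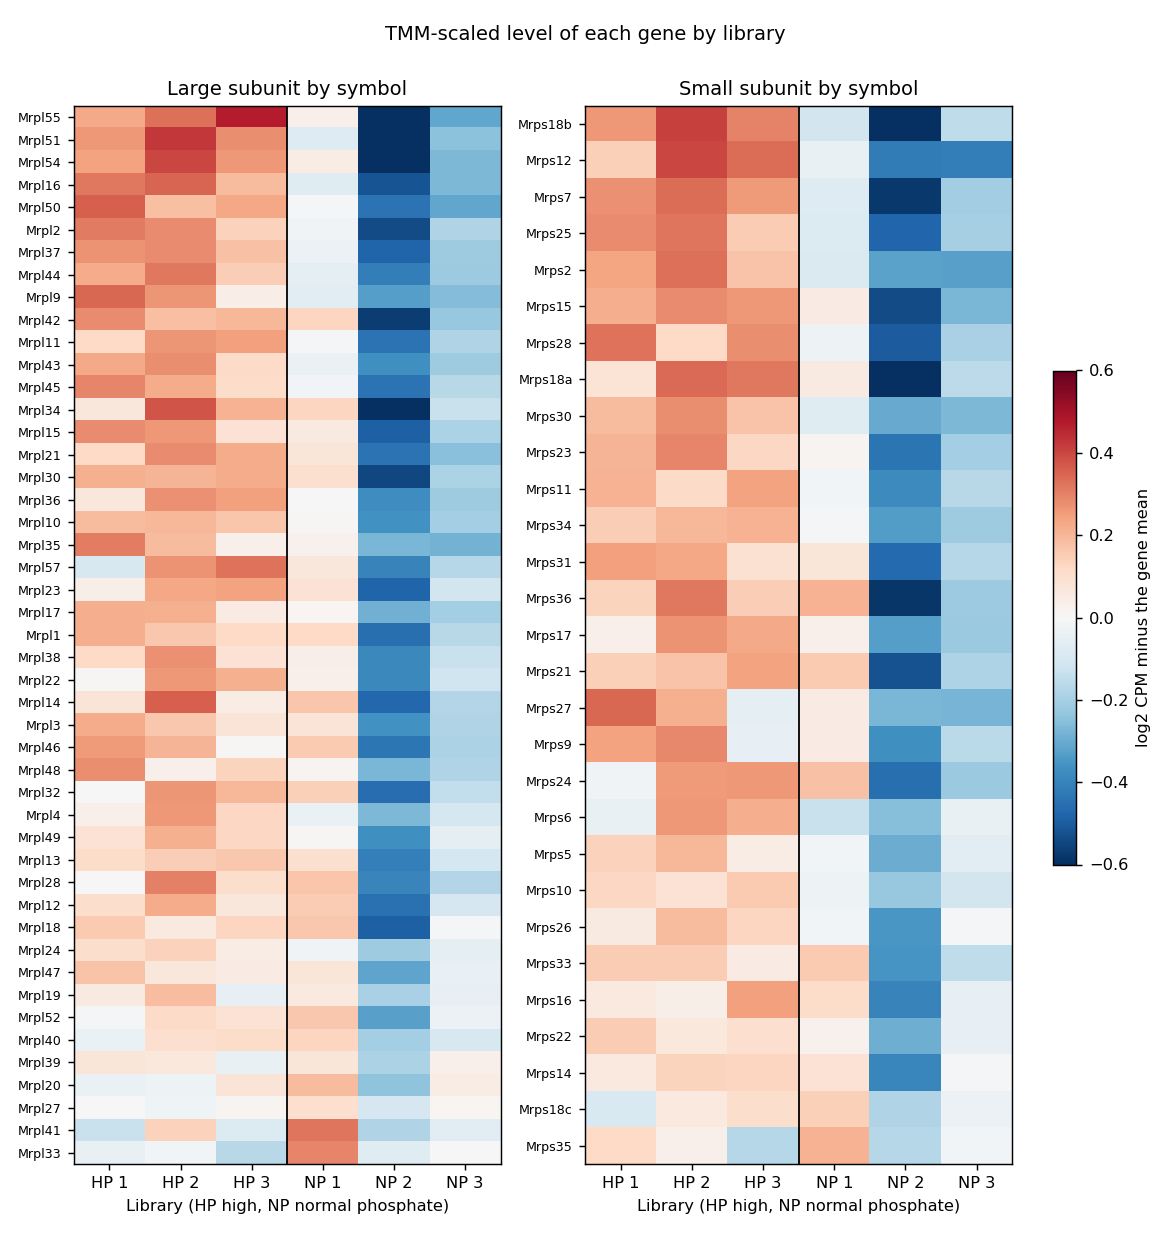
TMM-scaled log2 CPM of each of the 76 tested genes minus its mean over the 6 libraries, HP libraries left of the line and NP libraries right of it, ordered by fold change within each subunit. Most genes are above their mean in the HP libraries, near it in NP library 1 and lowest in NP library 2, which holds for 72 of 76 genes, with colours limited to -0.6 and 0.6, and Mrpl33 at the bottom of the large subunit is highest in NP library 1.

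The subunits did not separate. The counts of large subunit genes were 2.328, 2.275 and 2.233 times those of small subunit genes in the HP libraries, against 2.34, 2.287 and 2.291 times in the NP libraries. This ratio needs no scaling between libraries, and its diets overlapped, at 2.279 ± 0.0476 in HP and 2.306 ± 0.0295 in NP (SD, n = 3 each). The medians of the subunits' log2 fold changes differed by -0.03 (large minus small) under TMM and by -0.03 under library-size scaling. Under TMM 18 of 47 large and 13 of 29 small members rose, against 23% of all genes. Under library-size scaling 10 of 47 large and 2 of 29 small members fell, against 51.4% of all genes. The 6 that fell on log2(FPKM + 1), against 36.8% of all genes, were 3 of each subunit. Symbols do not always follow structure. Mrps30 and Mrps18a are built into the large subunit, and Mrps36 is known as a component of the 2-oxoglutarate dehydrogenase complex. With these 3 reassigned or left out, 20 of 49 large and 11 of 26 small members rose under TMM, against the same 23%. The ratio of large to small subunit counts was then 2.641 ± 0.038 in HP and 2.647 ± 0.0469 in NP (SD, n = 3 each). By origin, 18 of 46 members with a bacterial homolog and 13 of 29 mitochondrion-specific members rose under TMM, against 23% of all genes. Their median log2 fold changes were 0.32 and 0.36. Mrps18a and Mrps18b, which both rose, were counted here as mitochondrion-specific although they are relatives of bacterial S18, so this grouping is uncertain. The 19 proteins of the large subunit counted as mitochondrion-specific, with Mrps18a among them, had a median of 0.41, and its 30 bacterial homologs one of 0.31.

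The 3 relatives of bacterial S18 do not all sit in the same subunit. Mrps18c, which takes the place of bacterial S18 in the small subunit, had 23.0, 25.5 and 26.3 TMM CPM on HP, against 27.1, 21.6 and 23.9 TMM CPM on NP. Its log2 fold change was 0.04 ± 0.12 (SE, adjusted p = 0.781), and it turned to -0.03 without NP library 2. Mrps18a, which sits in the large subunit, had 74.8 ± 7.19 TMM CPM on HP and 54.0 ± 12.5 TMM CPM on NP (SD, n = 3 each) and rose by 0.47 ± 0.17 (SE, adjusted p = 0.0421). Its call was lost without HP library 2 (0.44) or 3 (0.45) and without NP library 2 (0.30) or 3 (0.50). Under library-size scaling Mrps18a stood at 0.02 (adjusted p = 0.935). Mrps18b, given above, rose by 0.62. Whether the 3 relatives differ from each other was not tested. Gm43511 covers 23.2% of the exonic bases of Mrps18c on the same strand, and 19.2% of its 50-base stretches also occur in other genes. Mrps36 had 24.1, 27.4 and 24.4 TMM CPM on HP, against 25.4, 14.7 and 18.9 TMM CPM on NP, which overlapped (log2 fold change 0.36 ± 0.18 SE, adjusted p = 0.124). Of its 50-base stretches 17.3% also occur in other genes, among them its pseudogenes, so its counts are uncertain. It was called higher without NP library 1, at 0.59.

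Genes that build and serve the mitoribosome stood near its proteins under TMM. Among all genes tested, 23% rose and 26.3% fell under TMM (27% and 29.6% unadjusted), and 23.9% rose with DESeq2. Of 6 further mitoribosome proteins with other names, 1 rose and 0 fell (2 and 0 at an unadjusted p under 0.05, and 2 and 0 with DESeq2), with a median of 0.24. The gene that rose was Ptcd3, a pentatricopeptide protein of the small subunit, with 72.8 ± 10.1 TMM CPM on HP and 54.0 ± 5.35 TMM CPM on NP (SD, n = 3 each), and its log2 fold change of 0.43 stood at 0.32 without HP library 1 and was no longer called. Under library-size scaling Ptcd3 stood at -0.05 (adjusted p = 0.71). Without NP library 1, 4 of the 6 rose. Of 26 assembly factors and ribosomal RNA modifying enzymes, 12 rose and 0 fell (19 and 0 unadjusted, 11 and 0 with DESeq2), with a median of 0.39. Fastkd2, an RNA-binding protein needed for assembly of the large subunit, had 49.95, 43.8 and 43.7 TMM CPM on HP, against 30.6, 25.1 and 25.7 TMM CPM on NP. Its log2 fold change was 0.76 under TMM (adjusted p = 0.00117) and 0.28 under library-size scaling (adjusted p = 0.0438), so it rose under both. The helicase Ddx28 and the GTPase Noa1 rose by 0.63 and 0.60 under TMM (adjusted p = 0.00266 and 0.00291), and did not pass with library size (adjusted p = 0.338 and 0.371).

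Of 16 translation factors and mitochondrial messenger RNA binding proteins, 7 rose under TMM and 0 fell, against 23% and 26.3% of all genes. The counts were 11 and 0 unadjusted and 7 and 0 with DESeq2, and the median was 0.34. Gfm1, the mitochondrial elongation factor G that moves the ribosome along its message, had 157, 141 and 124 TMM CPM on HP, against 86.0, 65.5 and 80.1 TMM CPM on NP. It rose by 0.86 ± 0.14 (SE, adjusted p = 0.00154) under TMM and by 0.39 under library-size scaling (adjusted p = 0.0107). The release factor Mtrf1 and the translational activator Taco1 both rose by 0.75 under TMM (adjusted p = 0.00154 and 0.0026), but stood at 0.28 each under library-size scaling and did not pass (adjusted p = 0.085 and 0.0609). Of 10 genes of mitochondrial DNA maintenance and transcription, 7 rose under TMM and 0 fell, against the same 23% and 26.3%. The counts were 7 and 0 unadjusted and 7 and 0 with DESeq2, and the median was 0.42. The count that rose under TMM was 4 without HP library 1, HP library 3 or NP library 2. It was 5 without HP library 2 or NP library 3. The DNA helicase Twinkle, listed as Peo1, rose by 0.89 under TMM and 0.42 under library-size scaling (adjusted p = 0.000914 and 0.0156). Its gene covers 33.4% of the exonic bases of the member Mrpl43 on the opposite strand. The mitochondrial RNA polymerase Polrmt had 36.4 ± 4.7 TMM CPM on HP and 20.7 ± 1.72 TMM CPM on NP (SD, n = 3 each), and its transcription factor Tfb2m had 43.6 ± 3.86 TMM CPM on HP and 25 ± 3.45 TMM CPM on NP. They rose by 0.82 and 0.80 under TMM and by 0.34 and 0.33 under library-size scaling (adjusted p = 0.0337 and 0.0272 in the second). Under library-size scaling, 1 assembly factor, 2 translation factors and 4 genes of DNA maintenance and transcription rose, and 4, 1 and 2 fell. Of all genes 5.72% rose and 51.4% fell on that scale.

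Regulators of mitochondrial biogenesis held genes that rose and a gene that fell. Of 10, 3 rose and 1 fell under TMM, near the 23% and 26.3% of all genes, with a median log2 fold change of 0.27, and 0 rose and 3 fell under library-size scaling (0 and 3 unadjusted). Esrra, a nuclear receptor of oxidative genes, had 145 ± 16.5 TMM CPM on HP and 92.4 ± 21.6 TMM CPM on NP (SD, n = 3 each) and rose by 0.65 ± 0.18 (SE, adjusted p = 0.015). The coactivator Pprc1 and the factor Yy1 rose by 0.39 and 0.30 (adjusted p = 0.0292 and 0.0399). Under library-size scaling Esrra stood at 0.19, Pprc1 at -0.09 and Yy1 at -0.17, and none passed (adjusted p = 0.269, 0.631 and 0.204). The count that rose was 0 without HP library 1 and 1 without HP library 2. The call of Esrra was lost without HP library 1 (0.60), that of Pprc1 without HP library 1 or 2 or NP library 1 or 3 (0.31 to 0.39), and that of Yy1 without any library but NP library 3 (0.25 to 0.35). Gabpb1, the partner subunit that lets GABP activate genes through ETS motifs, fell to 10.4 ± 0.624 TMM CPM on HP, against 14.8 ± 0.156 TMM CPM on NP (SD, n = 3 each, adjusted p = 0.00508). Gabpb1 also fell under library-size scaling (adjusted p = 0.000929). Members with and without a motif of these factors had close medians under TMM, 0.33 and 0.34 for NRF1, 0.31 and 0.35 for ETS, 0.38 and 0.32 for YY1. A match in a promoter is a description of its letters and not a bound site.

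Cytosolic ribosomal proteins and respiratory chain subunits give a scale for the members. Among all genes tested, 23% rose and 26.3% fell under TMM. Under library-size scaling 5.72% of all genes rose and 51.4% fell (6.86% and 56% unadjusted). Of 86 tested cytosolic ribosomal protein genes 3 rose and 3 fell under TMM, with a median of -0.05, and 0 rose and 69 fell under library-size scaling (0 and 74 unadjusted), with a median of -0.52. The 3 that rose under TMM were Rpl3l, a muscle-specific relative of Rpl3, with Rpl36al and Rps20 (log2 fold changes 0.62, 0.29 and 0.39), and under library-size scaling they stood at 0.17, -0.18 and -0.08 (adjusted p = 0.399, 0.171 and 0.595). The 3 that fell were Rpl3, Rpl39 and Rps27a (-1.07, -0.58 and -0.38). The calls of Rpl36al, Rpl3l, Rps20 and Rps27a were each lost without at least 4 of the 6 libraries in turn. Under TMM 0 rose without HP library 1, 2 or 3 or NP library 3, 1 rose without NP library 2, and 9 fell without NP library 2. Summed TMM CPM of members were 0.188, 0.18 and 0.175 times those of cytosolic ribosomal proteins in the HP libraries, against 0.149, 0.13 and 0.139 times in the NP libraries. This ratio needs no scaling between libraries, and every HP library lay above every NP library. Of 82 genes taken by symbol as respiratory chain and ATP synthase subunits, 9 rose and 3 fell under TMM, with a median of 0.26. With library-size scaling 0 rose and 21 fell (0 and 25 unadjusted), with a median of -0.20. Under TMM 19 were higher at an unadjusted p under 0.05, against 27% of all genes, and DESeq2 called 22 higher, against 23.9%. The edgeR count was 37 without NP library 1, 4 without HP library 1 or 2 and 5 without NP library 3. Atp5sl and Atp5s entered this list by the start of their symbols, which does not make them subunits. Ndufa12, a subunit of complex I, rose by 0.64, as did Atp5sl, whereas Atp5s rose by 0.73, all under TMM. Under library-size scaling they stood at 0.18, 0.17 and 0.26 and did not pass (adjusted p = 0.289, 0.279 and 0.106). The 3 that fell were the cytochrome oxidase subunits Cox6a1, Cox8a and Cox4i2, with -0.95, -0.67 and -0.70. Relative to the sum of the respiratory chain genes, the members stood at 0.104 to 0.117 in the HP libraries and 0.1 to 0.111 in the NP libraries, which overlapped.

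Markers of the cells in the muscle moved with the diet beside these results. The muscle fibre markers were mostly genes of fast fibres, such as Mylpf and Pvalb. Under TMM 9 of 12 muscle fibre markers rose and 0 fell (10 and 0 unadjusted, 10 and 0 with DESeq2), against 23% and 26.3% of all genes. Their sum was 216800 to 270700 TMM CPM in HP and 85190 to 123400 TMM CPM in NP. The members' sum was 1.49% to 1.93% of that sum in HP and 2.77% to 3.14% in NP, which is not a level per muscle fibre of any type. Of 8 slow fibre markers 7 fell, to 854 to 1288 TMM CPM in HP, against 2095 to 3003 TMM CPM in NP. All 8 white adipocyte markers fell (587.5 to 1009 TMM CPM in HP, 2441 to 3096 in NP), as did all 8 fibroblast markers (2310 to 2565 in HP, 4618 to 10590 in NP) and all 8 macrophage markers (357.8 to 519.1 in HP, 1011 to 1930 in NP). Of 8 endothelial markers 7 fell, to 508 to 708.7 TMM CPM in HP, against 859.9 to 1008 in NP. Without HP library 1, 3 of them were lower and 1 was higher. All 7 B cell markers fell, from a low level, at 1.053 to 2.037 TMM CPM in HP and 10.52 to 68.82 in NP, with Ms4a1 and Cr2 at 0 in at least 1 library. Under library-size scaling 7 of 12 muscle fibre markers rose and 0 fell, against 5.72% and 51.4% of all genes. On that scale all slow fibre, white adipocyte, fibroblast, macrophage and B cell markers fell, as did 7 of 8 endothelial markers. The muscle fibre sum followed the members among the NP libraries, with 123400 in library 1, 115500 in library 3 and 85190 in library 2. The fibroblast sum was highest, at 10590, in NP library 2, where the members were lowest. The part of these cells in the members' values was not tested.

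The deposited FPKM and the counts did not give the same fold changes for every member. For 69 of 76 members the log2 fold change on log2(FPKM + 1) lay within 0.25 of that from library-size counts, and 3 were over 0.5 apart. The ratio of FPKM to CPM varied over 1.2-fold between libraries in 28 members. Mrpl51, called higher from counts under TMM, had 29.6, 35.1 and 32.1 FPKM on HP, against 31.3, 67.0 and 28.9 FPKM on NP, so that NP library 2 was its highest in FPKM and its lowest in TMM CPM. The genes below were named after their values were seen. Mrpl15, a homolog of a bacterial large subunit protein, had 14.5, 15.7 and 13.6 FPKM on HP, against 61.7, 14.4 and 54.1 FPKM on NP, but 84.8 ± 6.11 TMM CPM on HP and 64.0 ± 11.9 TMM CPM on NP (SD, n = 3 each). Its log2 fold change was -1.27 on the FPKM scale and -0.06 from library-size counts. For Mrpl1 the FPKM were 23.5, 25.4 and 25.2 on HP, against 29.4, 9.54 and 10.1 on NP, a value of 0.75 on the FPKM scale and -0.15 from library-size counts. In Mrpl51, Mrpl15 and Mrpl1 the FPKM of 1 or 2 NP libraries stood apart by more than their counts did. HP libraries could stand apart too. The ratio of FPKM to CPM varied most in Mrpl17, by 6.77-fold. Mrpl17 had 38.6 FPKM in HP library 3 and 32.7 FPKM in NP library 1, against 6.27 to 8.30 FPKM in the others. Its diets still had close means, 17.2 FPKM on HP and 15.8 FPKM on NP. The tool behind the FPKM is not given in the sources used here. Mrpl53, the member that was not tested, had 0, 1 and 0 counts on HP, against 1, 1 and 0 on NP, but 70.0, 80.5 and 76.2 FPKM on HP, against 110.2, 78.7 and 89.0 FPKM on NP. Of its exonic bases 88% are shared on the same strand with Gm42688.

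**Figure D5:**
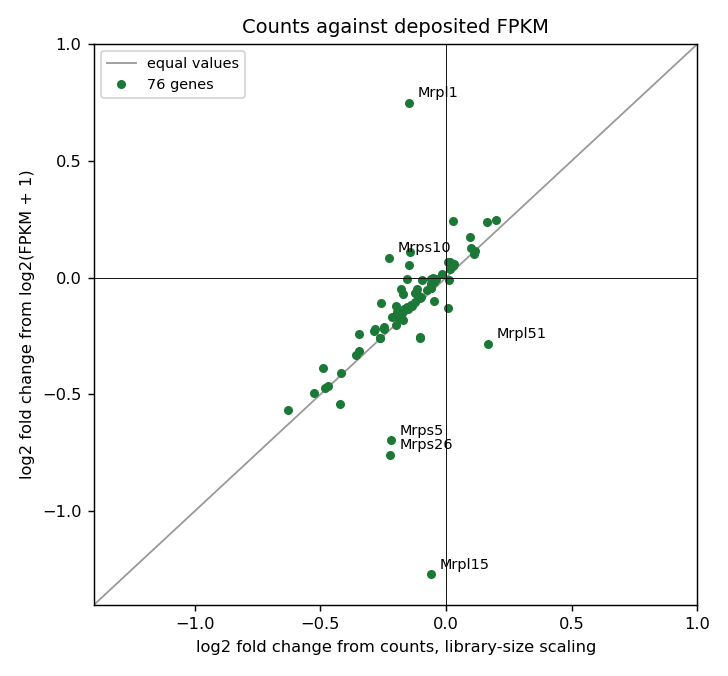
Log2 fold change, HP over NP, of each tested member from counts with library-size scaling (horizontal) and on log2(FPKM + 1) (vertical), with the line of equal values. Of 76 genes 69 lie within 0.25 of the line, and Mrpl15 (-1.27 in FPKM, -0.06 in counts) and Mrpl1 (0.75 and -0.15) lie farthest from it.

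All 77 members matched a gene of the GENCODE M21 annotation of build GRCm38, on 17 chromosomes. In 18 of them, 23.4%, over 10% of the exonic bases overlap another gene, and in 12, 15.6%, over 10% of the 50-base stretches occur in another gene. Mrps34, a small subunit protein called higher under TMM with 11.9 ± 0.269 TMM CPM on HP and 9.21 ± 1.08 TMM CPM on NP (SD, n = 3 each), shares 77.8% of its exonic bases with Nme3 and Mapk8ip3. Under library-size scaling it stood at -0.10 (adjusted p = 0.55). Values of such genes may hold reads of their neighbours or lack reads of their own, and which of these applied was not tested.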

How the data were processed

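Mouse gastrocnemius RNA-seq libraries, 3 per diet, were assigned and numbered from the sample labels. The authors deposited raw whole-number counts for each Ensembl gene, and FPKM values for 38011 genes. Without naming their roles, the submitters' processing notes list build GRCm38, featureCounts 1.4.6, HISAT2 2.0.1, DESeq2 1.6.3 and Trim Galore 0.4.1. Annotation release and strand setting were not given in the sources used here. Counts as deposited were fitted in R 4.3.3 with edgeR 4.0.16 (quasi-likelihood F test, TMM, filterByExpr, robust), and p-values were adjusted by Benjamini-Hochberg over 15347 genes, with calls at an adjusted p under 0.05. Data were also simulated with 200 changed genes, drawn at random from all genes tested. The edgeR fit recovered 32.8% of 1.5-fold, 68.7% of 2-fold and 92.4% of 4-fold changes in them. These rates cover genes of all count levels and are not rates for the members. A member not called is not shown to be unchanged. SE was the log2 fold change over the root of F, which is approximate. Alternatives were library size, RLE factors, no filter, TMM leaving out the 50 most abundant genes, a replicate block, DESeq2 1.42.0, limma 3.58.1 on log2(FPKM + 1) and log2(FPKM + 0.1), subunits by structure, and leaving out each library. Fold changes with these pseudocounts understate low genes. The members and lists were chosen with earlier results of these data known. Named were the 6 called members with the largest change in each direction, the 5 most and 5 least abundant by FPKM, the Mrps18 relatives, Mrpl12, Mrps36, and up to 3 called genes per list and direction by smallest p. Counts of libraries within a diet differed by more than counting noise (chi-square over its degrees of freedom 16.5 to 52.4), so none was a copy. The median SE of the members' log2 fold changes was 0.13.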

Additional observations from a re-analysis of the deposited data

How the results depend on the processing

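With library-size scaling 0 members were called higher (0 large, 0 small) and 12 lower (10 large, 2 small), and the median log2 fold changes were -0.138 for all, -0.149 for large and -0.116 for small subunit members. limma on log2(FPKM + 1) gave 0 higher (0 large, 0 small) and 6 lower (3 large, 3 small), with medians of -0.103, -0.104 and -0.101. With FPKM + 0.1 these were 0 higher (0 large, 0 small), 6 lower (3 large, 3 small) and -0.108, -0.11 and -0.107. Of all genes, 51.4% were lower with library size and 36.8% on log2(FPKM + 1). Library size and FPKM lack the TMM factor by construction. RLE factors gave 35 higher, DESeq2 34 (23.9% of all genes) and no filter 35, each with 0 lower, and all 31 members called under TMM were also called by DESeq2 and with RLE factors.

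Leaving out 1 library gave 17 to 55 members higher (9 to 35 large, 8 to 20 small), 0 lower, medians of 0.222 to 0.461 (0.211 to 0.46 large, 0.236 to 0.462 small), a large minus small difference of -0.0339 to -0.00153 and 6152 to 7577 genes called in all. With the replicate block 33 members were higher (22.2% of all genes) and 0 lower, with a median of 0.336, and Mrpl30 was called (edgeR adjusted p = 0.0483). Deviations of same-numbered libraries from their diet means correlated at -0.0137, 0.0245 and 0.0163, against -0.0763 to 0.0581 for libraries of differing number. The labels do not say that the numbers pair libraries, and with 3 libraries per diet these correlations cannot decide it.

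Among named genes, library size turned Mrpl42 to -0.0447, Mrps21 to -0.116, Mrpl30 to -0.0598, Mrpl12 to -0.216, Mrps26 to -0.222, Mrpl19 to -0.344, Mrps18c to -0.423, Mrps36 to -0.094, Ptcd3 to -0.0465, Pprc1 to -0.0941, Yy1 to -0.174, Rpl36al to -0.184 and Rps20 to -0.0773. FPKM + 1 and FPKM + 0.1 turned Mrpl51 to -0.283 and -0.288, Mrpl42 to -0.00896 and -0.00895, Mrps21 to -0.0713 and -0.0717, Mrpl30 to -0.0423 and -0.0424, Mrpl12 to -0.169 and -0.17, Mrps26 to -0.758 and -0.813, Mrpl19 to -0.242 and -0.293, Mrps18c to -0.54 and -0.549, Mrps36 to -0.0107 and -0.0106, Ptcd3 to -0.0431 and -0.0451, Rpl36al to -0.14 and -0.141, and Rps20 to -0.0372 and -0.0372. Mrps35 turned to 0.00157 without the filter, 0.0744 without HP replicate 3 and 0.0942 without NP replicate 1, with -0.102 as its lowest value when 1 library was left out. Mrps18c turned to -0.0341 without NP replicate 2 and reached 0.134 without NP replicate 1. Beyond the differing scaling, the cause of these turns was not tested.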

Other observations

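A protein-coding gene starting in the opposite direction within 1000 bases stood beside 18 of 77 members, 23.4%, against 9.41% of the 13681 protein-coding genes tested. Of the 16 such neighbours that were tested, 7 were higher on the HP diet under TMM, 1 was lower and 8 did not pass in edgeR. Of all genes tested 23% were higher and 26.3% lower by that rule. The seryl-tRNA synthetase gene of mitochondria, Sars2, starts 172 bases from Mrps12 and had a log2 fold change of 0.57 (adjusted p = 0.00506), and Mrps12 stood at 0.58. Apba3 starts 26 bases from Mrpl54 and stood at 0.63 (adjusted p = 0.00467). Mitd1, which starts 66 bases from Mrpl30, was the neighbour that was lower, at -0.98 (adjusted p = 0.00235), whereas Mrpl30 stood at 0.40. Pnpla7 starts 935 bases from Mrpl41 and stood at 0.96 (adjusted p = 0.000747), whereas Mrpl41 stood at -0.06. These neighbours were named after their values were seen.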
